A study of Homo sapiens with 6 samples.

Results

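The 40 genes described here are very long genes, each known for long introns, that were listed by name for their length and for their lower signal after compound treatment. All 40 were measured, out of 18418 genes read by probes with 1 gene symbol. They were chosen by measured values, namely the difference between a compound array and the vehicle array run with it, relative to other genes of similar vehicle signal, so those differences are given here as a description with no test. Their span, the distance from the first to the last base of the gene in RefSeq GRCh38.p14, ran from 317 kb for EXT1 to 2220 kb for DMD, with a median of 605 kb, against a median of 24.5 kb over all genes. Of the genes with a known span, 96.4% were shorter than the shortest of the 40.

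U373MG, an established human glioblastoma cell line, was exposed for 24 h to ET-770 at 4.83 nM, to ET-770-DR at 1.70 nM or to RM at 3.10 nM, each the concentration that the labels give as IC50, or to dimethyl sulfoxide (DMSO), the vehicle. ET-770 is an ecteinascidin, ET-770-DR is a derivative of it and RM is renieramycin M, and all belong to the tetrahydroisoquinoline alkaloids. Each compound was run in an experiment of its own with 1 compound array and 1 DMSO array, 6 arrays in all, on a whole-transcript Affymetrix array. The doses differed, so the compounds are set side by side and not compared with each other. With 1 array per arm, no spread within an arm was measured, and what follows describes 1 cell line. The label was borne out for the line in part: VIM and SOX2, glioma and neural progenitor genes, lay in the highest of 20 bins of signal on all 3 DMSO arrays, whereas the astrocyte gene AQP4 lay in bins 2 and 3 and GFAP in bins 9 to 11. ALDH1L1, also of astrocytes, lay in bin 6. The other glioma and astrocyte genes listed lay higher. CD44 was in bin 20, SOX9 in bins 18 and 19, FABP7 in 17 to 20, S100B in 14 to 17 and NES in 14 to 19. Of the myeloid genes, PTPRC lay in the lowest bin, AIF1 in bins 2 and 3 and CD14 in bin 7. Some genes of other cell types reached bins near that of GFAP: SNAP25 of neurons (7 to 10), MBP of oligodendrocytes (8 to 11), CDH5 of endothelium (6 to 11) and APOA1 of hepatocytes (9 and 10). Others lay lower, such as STMN2 (4 and 5), PECAM1 (1) and ALB (2). A bin near that of GFAP therefore does not set a cell type apart here.

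In a gene of this kind nearly all of the span is intron. RNA polymerase II must travel the whole distance before a full transcript can be released. The introns are spliced out, so that the mature RNA is far shorter than the gene. Long genes are frequent among those for adhesion, cytoskeleton, synapse and membrane traffic, and several of the longest, among them FHIT and WWOX, lie at common fragile sites, which are chromosome regions prone to break when replication is slowed. The 40 genes serve unlike processes and share length rather than a pathway.

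Most of the 40 genes gave lower signals on the compound arrays. A signal under 0.3333-fold of DMSO, the limit that the study's methods set for substantial downregulation, was found for 23 genes with ET-770, where 2.15% of all genes lay under it, for 24 with ET-770-DR, where the share of all genes was 2.12%, and for 21 with RM, where it was 1.36%. These shares stand beside the counts only to give the scale, since the same contrast chose the genes. None of the 40 exceeded 3-fold of DMSO with any compound, against 0.233%, 0.51% and 0.0434% of all genes with ET-770, ET-770-DR and RM. There were 20 genes under 0.3333-fold with all 3 compounds (1.01% of all genes) and 15 with none. The median log2 change was -1.91 for ET-770, -2.11 for ET-770-DR and -1.69 for RM, against medians over all genes of 0.02, -0.03 and 0.12. Set against genes in the same one of 20 bins of DMSO signal, the medians were -1.92, -2.24 and -1.71. Signals under 0.5-fold numbered 27, 26 and 28 of the 40 for these compounds, against 4.68%, 4.94% and 4.28% of all genes, and 26 genes were under it each time (2.77% of all genes). Signals lower than DMSO by any amount numbered 39, 40 and 35, against 46.6%, 53% and 36.3% of all genes. For 35 of the 40 genes the signal was lower than DMSO with all 3 compounds, as it was for 20.6% of all genes.

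**Figure D1:**
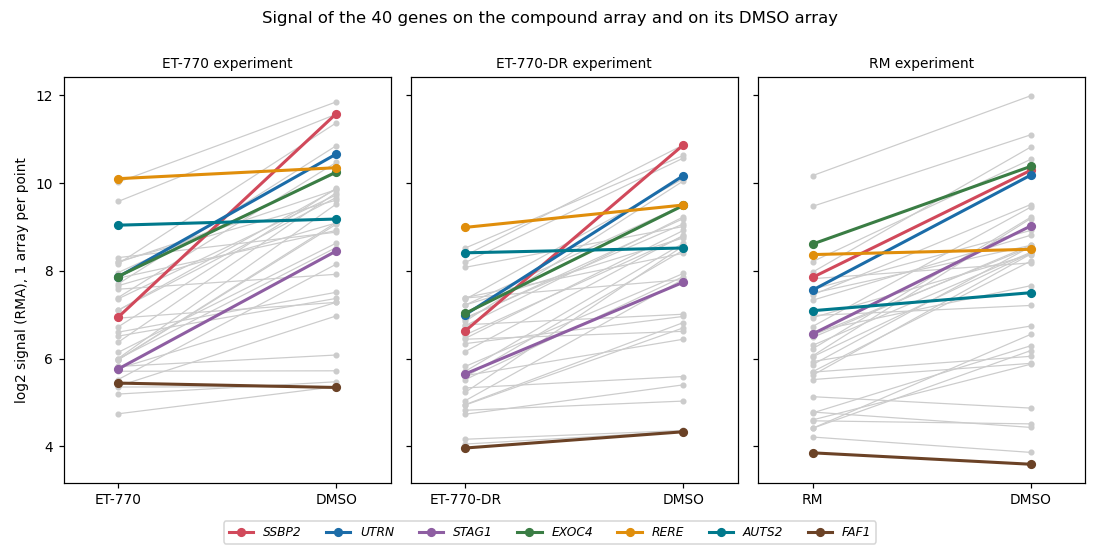
Log2 signal of the 40 genes on the compound array (left of each panel) and on the paired DMSO array (right), 1 array per point, with a line joining the 2 arrays of a gene and 7 genes in colour. SSBP2, UTRN, EXOC4 and STAG1 sat far lower on each compound array, whereas RERE and AUTS2 lay almost level and FAF1 stayed near the bottom on all 6 arrays.

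The 10 genes of membrane traffic were lower than DMSO with every compound, with a median of the mean log2 changes of -2.66, and 7 of them were under 0.3333-fold with all 3. EXOC4 and EXOC6B encode subunits of the exocyst, the complex that tethers secretory vesicles to the plasma membrane. EXOC6B had a log2 signal of 6.72 on the ET-770 array against 9.88 on its DMSO array, 6.46 with ET-770-DR against 8.92 with DMSO, and 6.06 with RM against 9.19 with DMSO. EXOC4 had 7.87 with ET-770 against 10.25 with DMSO, 7.03 with ET-770-DR against 9.49 with DMSO, and 8.61 with RM against 10.38 with DMSO. With ET-770, ET-770-DR and RM the folds were 0.112, 0.182 and 0.114 for EXOC6B and 0.193, 0.181 and 0.295 for EXOC4.

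VPS13B, a lipid transfer protein at the Golgi, gave 5.97 with ET-770 against 9.10 with DMSO, 5.71 with ET-770-DR against 8.63 with DMSO, and 5.62 with RM against 8.38 with DMSO, a mean log2 change of -2.94 ± 0.19 (SD over 3 experiments). SBF2, an inactive member of the myotubularin phosphatases, stood at 6.0 with ET-770 against 9.52 with DMSO, 5.23 with ET-770-DR against 8.57 with DMSO, and 5.86 with RM against 8.55 with DMSO. Its mean log2 change of -3.18 ± 0.43 was the second lowest of the 40. PSD3, an exchange factor that loads the small GTPase ARF6 with GTP, was read by 2 probes. The first gave log2 changes of -3.49, -3.65 and -3.88 with ET-770, ET-770-DR and RM, and the second -2.69, -2.13 and -2.14, so both were lower with each compound and differed in size.

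ERC1, a Rab6-binding scaffold of vesicle docking sites, had folds of 0.0943, 0.16 and 0.229 with ET-770, ET-770-DR and RM, and BBS9, a subunit of the BBSome that carries receptors in cilia, had 0.178, 0.147 and 0.174. NBEA, which guides membrane proteins through the secretory path, straddled the limit at 0.329, 0.295 and 0.414. TRAPPC9, a subunit of the TRAPPII complex at the Golgi, lay just outside it at 0.379, 0.347 and 0.369. VTI1A, a SNARE protein of the trans-Golgi, changed least of the 10, at 0.55, 0.652 and 0.569. Its 2 probes parted: log2 changes with ET-770, ET-770-DR and RM were -1.43, -0.79 and -1.52 on one and -0.29, -0.45 and -0.11 on the other.

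Among 9 genes of transcription and chromatin, the median of the mean log2 changes was -2.25, and 5 lay under 0.3333-fold with all 3 compounds. SSBP2, which stabilises the LDB1 adaptor in transcription complexes, had the lowest value of the 40. Its log2 signal was 6.94 with ET-770 against 11.58 with DMSO, 6.63 with ET-770-DR against 10.87 with DMSO, and 7.85 with RM against 10.29 with DMSO. These are folds of 0.04, 0.0528 and 0.184, and the SD of its log2 change over the 3 experiments, 1.17, was the largest of the 40.

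STAG1, a subunit of cohesin, the ring that holds sister chromatids and chromatin loops, gave 5.76 with ET-770 against 8.45 with DMSO, 5.65 with ET-770-DR against 7.74 with DMSO, and 6.56 with RM against 9.02 with DMSO. Its folds were 0.155, 0.234 and 0.181. SUPT3H, a subunit of the SAGA histone acetylation complex, had folds of 0.162, 0.196 and 0.226 with ET-770, ET-770-DR and RM. SMYD3, a lysine methyltransferase, had 0.171, 0.231 and 0.233, and ATXN1, a transcriptional repressor, had 0.147, 0.21 and 0.194. ZBTB20, a zinc finger repressor, reached 0.316 and 0.206 with ET-770 and ET-770-DR but 0.482 with RM.

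The other transcription genes moved less. CUX1, a homeodomain factor, lay near 0.5-fold throughout, with log2 changes of -1.09, -1.02 and -1.09. RERE, an atrophin-type corepressor, had 10.10 with ET-770 against 10.35 with DMSO, 8.99 with ET-770-DR against 9.5 with DMSO, and 8.37 with RM against 8.49 with DMSO. AUTS2, a component of a Polycomb repressive complex, had 9.04 with ET-770 against 9.18 with DMSO, 8.41 with ET-770-DR against 8.52 with DMSO, and 7.09 with RM against 7.5 with DMSO. RERE and AUTS2 span 465 and 1195 kb, lay in bins 11 to 18 of 20 on the DMSO arrays, and had folds between 0.702 and 0.927.

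Of 8 genes of the cytoskeleton and adhesion, 5 lay under 0.3333-fold with all 3 compounds. UTRN encodes utrophin, the relative of dystrophin that links actin to the membrane outside of striated muscle. It gave 7.86 with ET-770 against 10.66 with DMSO, 7.0 with ET-770-DR against 10.17 with DMSO, and 7.56 with RM against 10.18 with DMSO. These are folds of 0.144, 0.112 and 0.163. DMD, the gene of dystrophin itself and the longest of the 40, gave 6.60 with ET-770 against 7.51 with DMSO, 5.61 with ET-770-DR against 6.44 with DMSO, and 5.52 with RM against 5.89 with DMSO. Here the ET-770 array lay above the DMSO arrays of the other experiments. Its median log2 signal over all probes, 7.30, was also above theirs, 6.68 and 6.63, so that order cannot be read as a difference in DMD. The folds of DMD were 0.533, 0.563 and 0.774.

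LPP, a LIM protein of focal adhesions, had folds of 0.119, 0.109 and 0.239 with ET-770, ET-770-DR and RM. FRMD5, a FERM domain protein at cell contacts, had 0.112, 0.149 and 0.139. FNDC3B, a membrane protein with fibronectin type III domains, had 0.108, 0.192 and 0.2. The neuron navigators, which bind growing microtubule ends, differed from each other: NAV2 had 0.21, 0.18 and 0.249, and NAV3 0.781, 0.885 and 0.781. DLG2, a scaffold of synapses, had 0.991, 0.819 and 1.05.

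Among 5 enzymes and adaptors of RNA, sugar and protein turnover, 4 were lower with every compound. FTO, a demethylase of methylated adenine in RNA, gave 10.02 with ET-770 against 11.85 with DMSO, 8.35 with ET-770-DR against 10.87 with DMSO, and 9.47 with RM against 11.10 with DMSO, and so lay in the highest bin of signal on each DMSO array. SND1, a nuclease of the microRNA silencing machinery, gave 9.58 with ET-770 against 11.57 with DMSO, 8.52 with ET-770-DR against 10.63 with DMSO, and 10.17 with RM against 11.99 with DMSO. CDKAL1, which modifies transfer RNA, had folds of 0.167, 0.206 and 0.152. EXT1, which builds heparan sulfate chains, had 0.194 and 0.227 with ET-770 and ET-770-DR and 0.393 with RM. FAF1, an adaptor for the protein-unfolding ATPase VCP, stood at 5.44 with ET-770 against 5.34 with DMSO, 3.96 with ET-770-DR against 4.33 with DMSO, and 3.85 with RM against 3.59 with DMSO.

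The remaining 8 genes serve mitosis, receptors, mitochondria and small-molecule enzymes, and none was under 0.3333-fold with all 3 compounds. THADA, a gene of thyroid adenoma breakpoints, had folds of 0.371, 0.524 and 0.357, and MAD1L1, a spindle checkpoint protein, had 0.666, 0.743 and 0.778. LRP1B, a large endocytic receptor, lay just outside the limit with ET-770 and RM, at 0.349 and 0.346, and inside it with ET-770-DR, at 0.273. IMMP2L, a peptidase of the inner mitochondrial membrane, gave 4.74 with ET-770 against 5.36 with DMSO, 4.82 with ET-770-DR against 5.03 with DMSO, and 4.41 with RM against 6.18 with DMSO. Only its RM fold, 0.293, was under the limit. WWOX, an oxidoreductase at a common fragile site, had folds of 0.789, 0.847 and 0.853. FHIT, a hydrolase of diadenosine triphosphate at another such site, had 0.831 and 0.629 with ET-770 and ET-770-DR and 1.28 with RM. MACROD2, which removes ADP-ribose from proteins, and NAALADL2, a peptidase-like membrane protein, had folds between 0.827 and 1.27.

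**Figure D2:**
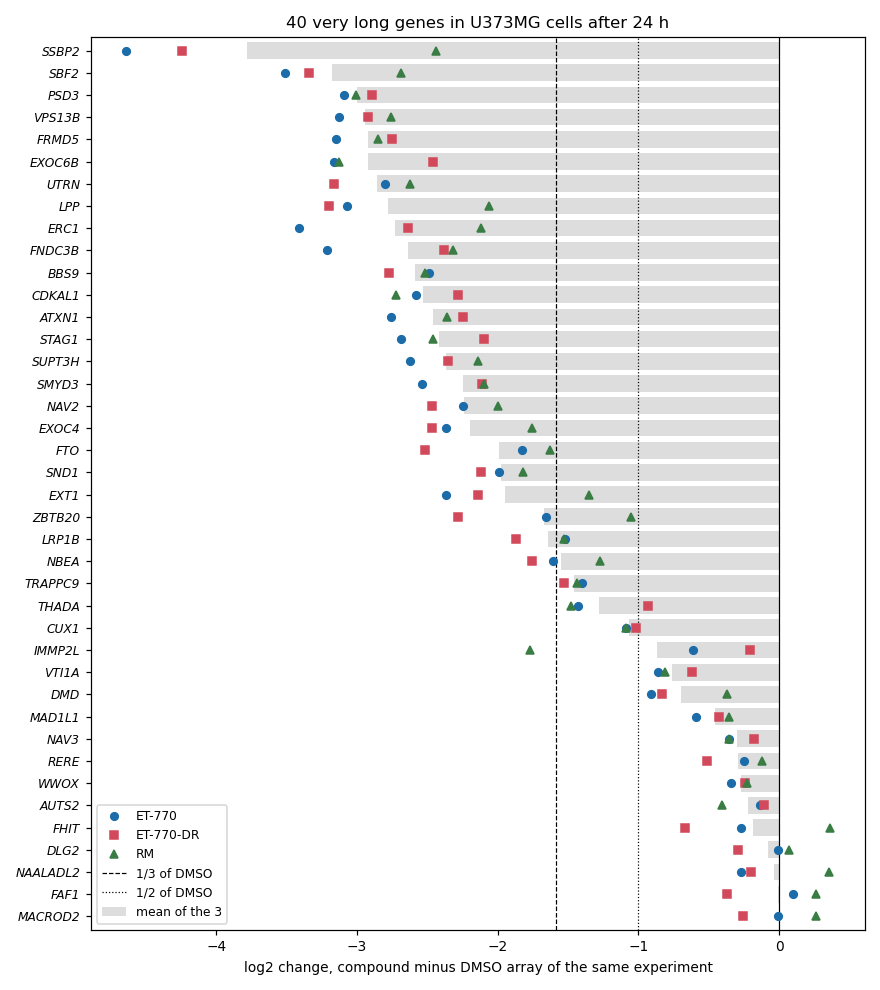
Log2 change of each of the 40 genes, compound array minus its own DMSO array, for ET-770 (circles), ET-770-DR (squares) and RM (triangles), with the mean of the 3 as a grey bar, and dashed and dotted lines at 0.3333-fold and 0.5-fold. The genes run from SSBP2, with a mean of -3.78, to MACROD2, whose 3 values scatter around 0.

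The 40 genes therefore did not behave as one. FHIT, DLG2, NAALADL2, FAF1 and MACROD2 lay in the lowest 5 of the 20 bins of signal on all 3 DMSO arrays. The label of widely expressed genes was thus not borne out by signal for these 5 in U373MG. Each was read by 1 probe, and low expression cannot be told apart from a probe that reads poorly. For those 5 no fold under 0.3333 was found, though DMSO signals of 3.59 to 6.08 left little room for one. Each was higher than DMSO with RM, where 36.3% of all genes were lower. Relative to genes of similar DMSO signal, DLG2 was lower with RM (-0.06), and the other changes with RM ran from 0.12 to 0.23. The mean log2 changes of the 5 ran from -0.19 to -0.0005. RERE, AUTS2, WWOX and MAD1L1 had signal in bins 10 to 18 and folds between 0.666 and 0.927. Over the 40 genes the Spearman correlation of mean DMSO signal with mean log2 change was -0.66 (n = 40 genes on the same 6 arrays). The DMSO signal also enters the change, so this is given as a description only.

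A gene's 3 log2 changes lay close together in most cases, although each came from another compound and another experiment. The SD over the 3 had a median of 0.26, and it exceeded 0.5 for 7 genes. The smallest, 0.04, belonged to CUX1. The DMSO arrays themselves differed: after quantile normalization of the 6 arrays, 9 of the 40 genes differed by more than 2-fold among the DMSO arrays, as did 16.7% of all genes, and ZBTB20 differed most, by 2.04 on the log2 scale. The part of these vehicle differences in the changes was not tested.

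Length within the 40 did not order the changes from small to large. The Spearman correlation of span with mean log2 change was 0.40 over the 40 genes, the sign that goes with smaller differences in the longest genes, and 0.16 over the 21 with a mean signal above the median of all genes (descriptions over genes on shared arrays). SSBP2, at 339 kb, lay far below AUTS2, at 1195 kb. The 8 longest genes were DMD, DLG2, MACROD2, LRP1B, FHIT, NAALADL2, AUTS2 and WWOX. Of these LRP1B alone went under 0.3333-fold, with ET-770-DR. However, only AUTS2 of the 8 had a mean signal above the median of all genes. DLG2, MACROD2, FHIT and NAALADL2 lay in the lowest 5 of the 20 bins on all 3 DMSO arrays, with little room for such a fold. Outside the 40, 64.3% of genes over 500 kb with a mean signal above that median were under 0.3333-fold with ET-770. The shares were 61.9% with ET-770-DR and 52.4% with RM. The parts of length and of low signal were not tested.

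The starts of the genes were read from the RefSeq promoter windows, which were matched for 32 of the 40 genes (78 windows). VPS13B, EXOC6B, LRP1B, BBS9, EXT1, RERE, TRAPPC9 and PSD3 had none in the table. A single start window was listed for 13 genes and several for 19. DLG2 had 9 windows with its outermost starts 1946 kb apart, DMD 7 windows over 1831 kb, ZBTB20 8 over 764 kb, and LPP 7 over 431 kb, so a transcript of these genes can be far shorter than the gene. FHIT and MACROD2 had 2 windows each, 1171 and 1201 kb apart. SSBP2 had 4 within 1.06 kb and SBF2 3 within 10.6 kb, so the listed starts of each lay close together. Where transcripts from them end was not read.

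The 250 bases before the start were searched for 3 core promoter motifs on both strands, none of which contains another, with overlapping matches counted. The GC box GGGCGG was found in 42.3% of the 78 windows and in 42.6% of all 35116 windows. CCAAT was found in 39.7% of the 78 and in 32% of all windows, and TATAAA in 16.7% and 10.7%. The GC content had a median of 56.2% in the 78 windows and 58.0% in all. Windows of 1 gene share sequence, and a match of letters is not a site in use.

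To show how unlike the promoters of these genes are, the 250 bases before the start are printed for 4 genes with 1 listed window, chosen after their values were seen: CDKAL1 and STAG1 with the lowest mean changes among such genes, and AUTS2 and WWOX with the smallest changes among those with a log2 signal above 7 on each DMSO array. All are from RefSeq, build GRCh38.p14, 5′ to 3′ on the strand of the gene, and capitals mark GC boxes on either strand. They lie at chr6:20534207-20534456 on the plus strand for CDKAL1, chr3:136752379-136752628 on the minus strand for STAG1, chr7:69598225-69598474 on the plus strand for AUTS2, and chr16:78099404-78099653 on the plus strand for WWOX.
CDKAL1: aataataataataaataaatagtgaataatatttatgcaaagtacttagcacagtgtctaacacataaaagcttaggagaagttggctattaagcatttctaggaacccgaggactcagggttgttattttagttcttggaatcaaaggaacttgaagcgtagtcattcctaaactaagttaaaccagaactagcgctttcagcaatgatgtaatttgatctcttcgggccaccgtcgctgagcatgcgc
STAG1: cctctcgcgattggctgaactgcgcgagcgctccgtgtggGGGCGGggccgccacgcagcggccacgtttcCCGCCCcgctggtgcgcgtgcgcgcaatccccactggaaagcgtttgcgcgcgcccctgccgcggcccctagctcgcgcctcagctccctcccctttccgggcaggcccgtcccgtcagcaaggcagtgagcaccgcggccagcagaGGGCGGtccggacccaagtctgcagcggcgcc
AUTS2: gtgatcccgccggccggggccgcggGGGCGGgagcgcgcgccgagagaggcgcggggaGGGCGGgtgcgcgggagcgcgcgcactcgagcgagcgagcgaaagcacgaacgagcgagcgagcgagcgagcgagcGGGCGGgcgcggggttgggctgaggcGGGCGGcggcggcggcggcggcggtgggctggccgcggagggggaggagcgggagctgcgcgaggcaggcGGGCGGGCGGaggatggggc
WWOX: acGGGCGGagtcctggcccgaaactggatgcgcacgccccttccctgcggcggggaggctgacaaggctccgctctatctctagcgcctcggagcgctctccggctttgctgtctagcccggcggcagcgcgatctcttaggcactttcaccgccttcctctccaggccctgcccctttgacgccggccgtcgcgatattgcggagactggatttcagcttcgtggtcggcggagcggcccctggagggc

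The windows of the 2 genes with lower signals did not resemble each other. CDKAL1 had a GC content of 37.2% and no GC box, whereas STAG1 had 74.4% and 3. AUTS2 and WWOX had 82.8% with 6 GC boxes and 67.6% with 1.

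A separate question was whether genes that work with the 40, or are their paralogs, were lower too. These genes were not among the 40, but they were listed with earlier results of these data known. Counts over them are therefore a description. A test was made with limma over all 18418 genes, compound arrays against DMSO arrays (3 each) with the experiment as a block. In it the 3 compounds stand as replicates of each other, so a p-value measures how alike the changes were across compounds and experiments. Of 110 listed partners and paralogs 104 were measured, of which 29 fell, 19 rose and 56 did not pass, where 11.2% of all genes fell and 13.1% rose. Split by their own span, 14 of 16 partners over 200 kb fell and 0 rose, with a median log2 change of -1.44. Of 11 partners from 100 to 200 kb, 9 fell and 0 rose. Of 37 from 30 to 100 kb, 6 fell and 4 rose. Of 40 partners up to 30 kb, 0 fell and 15 rose, with a median of 0.31. Other genes with a mean signal above the median of all genes split in a like way by span. From 200 to 500 kb 89.4% of them fell and 0.271% rose, and from 10 to 30 kb 2.1% fell and 35.5% rose. The split was thus not particular to the partners. Without the block 7 partners fell and 0 rose, and with 1 experiment left out the number that rose was 9 (without ET-770 or without ET-770-DR) or 29 (without RM).

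The exocyst showed this split within a single complex. EXOC2 (208 kb) had a log2 signal of 8.31 with ET-770 against 10.29 with DMSO, 7.66 with ET-770-DR against 9.71 with DMSO, and 8.36 with RM against 9.80 with DMSO, and it fell (log2 change -1.82, SE 0.15, limma adjusted p = 3.9e-05). EXOC6 (233 kb), the paralog of EXOC6B, also fell (-1.44, SE 0.15, adjusted p = 0.00017). EXOC8 (5.1 kb) had 9.01 with ET-770 against 8.53 with DMSO, 8.85 with ET-770-DR against 8.06 with DMSO, and 9.72 with RM against 9.03 with DMSO, and it rose (0.65, SE 0.13, adjusted p = 0.0046). EXOC1, EXOC3, EXOC5 and EXOC7, which span 22.8 to 68.4 kb, did not pass, with log2 changes from -0.25 to 0.21. EXOC4 and EXOC6B, also over 200 kb, are among the 40 genes chosen for lower signals, so they add nothing to this split.

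Cohesin gave a similar picture beside STAG1. NIPBL (190 kb), the loader of the ring, and its regulators PDS5A (155 kb) and PDS5B (192 kb) fell, with log2 changes of -0.98, -0.64 and -0.83. SMC3 (38.4 kb), a core subunit, rose by 0.52 (adjusted p = 0.022), while SMC1A, RAD21 and WAPL did not pass, with 0.15, 0.23 and -0.17. STAG2 (142 kb), the paralog that can take the place of STAG1 in the ring, had 10.00 with ET-770 against 10.15 with DMSO, 9.33 with ET-770-DR against 9.05 with DMSO, and 9.77 with RM against 10.35 with DMSO, and did not pass (-0.15, adjusted p = 0.64).

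Around dystrophin and utrophin, 6 of 7 measured partners fell, where 11.2% of all genes fell. Among other genes with a mean signal above the median, 89.4% from 200 to 500 kb fell. The share was 64% from 100 to 200 kb and 12.3% from 30 to 100 kb. The count is therefore not read as a trait of these partners. DTNA (399 kb), a dystrobrevin, and SNTB1 (276 kb), a syntrophin adaptor, fell most, by 1.54 and 1.45 on the log2 scale. DTNB (296 kb), SNTB2 (122 kb), SSPN (113 kb) and SGCE (71.2 kb) fell by 0.39 to 0.58. The sarcoglycan SGCB (17.6 kb) did not pass, at 0.10.

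The small families beside SSBP2 and PSD3 were mixed. SSBP3 (188 kb) fell, at -1.17 (adjusted p = 0.00025), its paralog SSBP4 (31.8 kb) did not pass, at 0.32, and LDB1 (19.4 kb), the adaptor they bind, rose by 0.55 (adjusted p = 0.015). PSD and PSD4 (17.3 and 35.4 kb) did not pass, at -0.18 and -0.28, and ARF6 (3.97 kb), the GTPase that these factors act on, rose by 0.41 (adjusted p = 0.034). The 7 SAGA subunits listed beside SUPT3H are named here after their values were seen, and span 8.26 to 43.8 kb. Of these KAT2A, TAF5L, TADA1, SUPT7L and TAF6L rose, with log2 changes of 0.92, 0.70, 0.65, 0.61 and 0.51. TADA3 and USP22 did not pass, with -0.21 and -0.02. Of all genes 13.1% rose. Among other genes with a mean signal above the median, 35.5% from 10 to 30 kb rose, and 13.2% from 30 to 100 kb. The values of the subunits are a description only.

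The paralogs with the lowest values were long genes as well. LRBA (751 kb), a relative of NBEA, fell, with a log2 change of -2.51, as did FRMD3 (343 kb) with -2.46 and NAV1 (288 kb) with -2.29. DLG1 (257 kb), with 8.93 on the ET-770 array against 11.04 with DMSO, 9.29 with ET-770-DR against 10.90 with DMSO, and 9.16 with RM against 11.06 with DMSO, fell by 1.88, and VPS13D and VPS13C (282 and 208 kb) fell by 1.63 and 1.32. DLG1 and NAV1 thus fell where their relatives DLG2 and NAV3, both in bins 2 to 8 of DMSO signal, had folds from 0.781 to 1.05. The 2 partners over 200 kb that did not pass were ERC2 (960 kb) and CUX2 (316 kb), at -0.09 and -0.03. Both had a mean signal below the median of all genes.

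**Figure D3:**
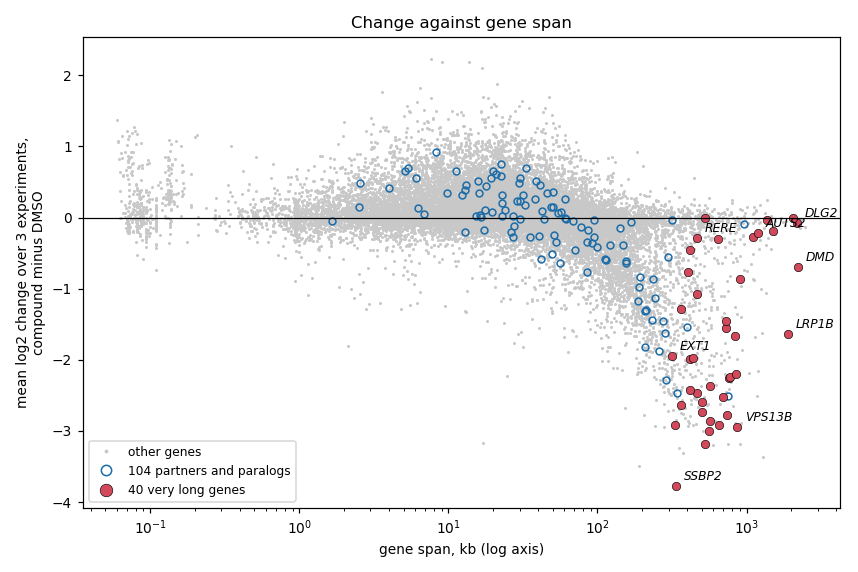
Mean log2 change over the 3 experiments (compound minus DMSO) against gene span in kb on a log axis, for the 40 genes (red), their 104 measured partners and paralogs (blue rings) and all other genes with a span (grey). Below about 100 kb the genes scatter around 0, and above it most points lie below 0, with the 40 genes between -3.78 and -0.0005 and a thin band near 0 that reaches the greatest spans.

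The same pattern ran through the genes outside the 40. Among 5245 other genes of up to 10 kb, 1.14% fell and 15.8% rose in the limma test, and of 4975 genes from 10 to 30 kb 1.39% fell and 22.3% rose. Of 1810 genes from 100 to 200 kb 43.8% fell and 0.829% rose, and of 1005 from 200 to 500 kb 55.5% fell and 0.199% rose. Of the 265 over 500 kb 106 fell, 40%, and 0 rose. Among the 42 of these with a mean signal above the median of all genes, 92.9% fell and the median log2 change was -2.0. Their shares under 0.3333-fold were 64.3% for ET-770, 61.9% for ET-770-DR and 52.4% for RM, beside 15, 15 and 13 of the 21 listed genes that met the same limit of signal. No test of a difference between the 40 genes and other long genes was made. Without the experiment block, 22.1% of the other genes over 200 kb fell, against 52.3% with it, and 0.0489% of those up to 30 kb, against 1.26%, while the share up to 30 kb that rose was 0.205%, against 19%. The lowest values among those outside the list and over 500 kb were those of TENM2 (-3.36), ELMO1 (-3.20), NLGN1 (-3.19), PLCB1 (-3.18) and PRKCA (-3.00), which serve adhesion, engulfment, synapses and signalling.

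**Figure D4:**
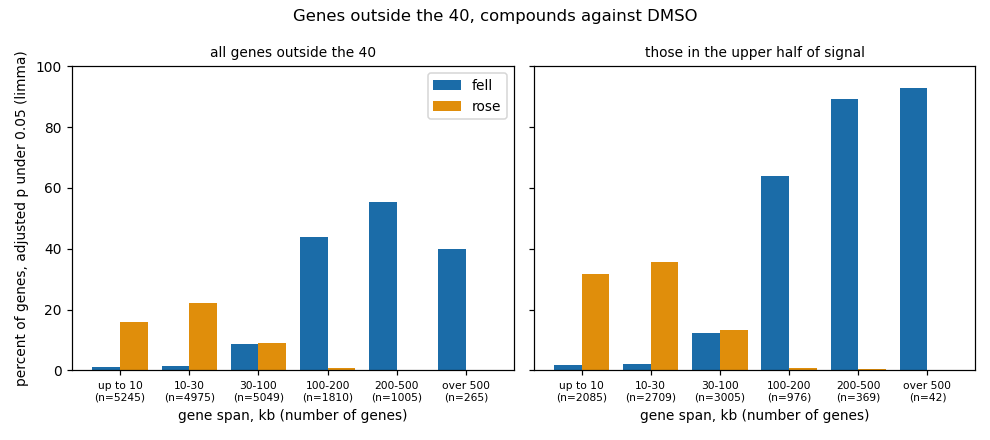
Percent of the genes outside the 40 that fell (blue) and rose (orange) at an adjusted p under 0.05 in limma, by class of gene span in kb, for all of them (left) and for those with a mean signal above the median of all genes (right), with the number of genes under each class. On the left the share that fell is 1.14% in the shortest class, highest at 55.5% from 200 to 500 kb and 40% over 500 kb, and on the right it runs from 1.58% in the shortest class to 92.9% in the longest. The share that rose is 0 over 500 kb in both.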

How the data were processed

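Total RNA of U373MG cells was hybridised to 6 Affymetrix Human Gene 1.0 ST arrays, 1 per sample. The values deposited by the authors are log2 signals from robust multiarray average (RMA) in Affymetrix Expression Console. Whether the arrays were normalized together is not given in the sources used here, and array medians ran from 6.63 to 7.30. Of 33297 probes, 19460 had 1 gene symbol and were averaged per Entrez gene, and 1754 with several and 12083 with none were left out. Each compound array was set against its own DMSO array. For genes outside the 40, limma 3.58.1 (lmFit, eBayes without trend, R 4.3.3) tested compounds against DMSO with the experiment as a block and Benjamini-Hochberg adjustment at 0.05, and was tested on simulated data. Spans came from RefSeq GRCh38.p14 for 18389 genes, and span is used as a property of the gene, since the array file names no build. The members and lists were chosen with earlier results of these data known. All 40 were named, and of the partners those of EXOC4, EXOC6B, DMD, STAG1, SSBP2 and PSD3, the 10 largest changes past the threshold, and of other genes over 500 kb the 5 largest falls. The partners of SUPT3H, and ERC2 and CUX2, were added after their values were seen. The arrays came from 3 independent experiments with a different compound in each, so p-values measure the spread over experiments and compounds together. The number of arrays limits the precision. Alternatives were quantile normalization, the brightest probe, a filter at the median signal, the mean DMSO control, other limits and bins, no block, a trend and leaving out each experiment.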

Additional observations from a re-analysis of the deposited data

How the results depend on the processing

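The mean log2 changes of 5 of the 40 genes turned positive with 1 experiment left out, all of them near 0 to begin with: without ET-770-DR those of FHIT (0.05), DLG2 (0.03), NAALADL2 (0.04), FAF1 (0.18) and MACROD2 (0.13), and without ET-770 those of NAALADL2 (0.07) and MACROD2 (0.0029). The other 35 kept their sign in each alternative run on them. Of the 40 mean log2 changes, 39 stayed within 1 SD under quantile normalization (CUX1 became -1.12). The brightest probe could alter only VTI1A and PSD3, the 2 genes read by 2 probes. Both moved by more than 1 SD, to -1.25 and -2.32. Leaving out 1 of 3 experiments cannot move a mean by 1 SD of the 3 values. Those runs are therefore no check by this measure. With genes below the median signal left out, 21 of the 40 remained, of which 15, 15 and 13 were under 0.3333-fold with ET-770, ET-770-DR and RM, and the ET-770 medians were -2.37 and, relative to signal, -2.46. That filter uses the mean of all arrays, which a low compound signal lowers, and so drops SBF2 and VPS13B. Against the averaged DMSO arrays, the ET-770 median was -1.34 and the relative ET-770-DR median -1.91. Without the replicate block of experiment, 7 partners fell and 0 rose, 22.1% of other genes over 200 kb fell and 0% rose, and of those up to 30 kb 0.0489% fell and 0.205% rose. With the filter, 91.7% of genes over 200 kb fell and 0.487% rose, against 52.3% and 0.157% without it, and of genes up to 30 kb 2.57% fell and 42.1% rose, against 1.26% and 19%. Quantile normalization gave 1.96% falling up to 30 kb. Without one experiment, the partners that rose numbered 9 (without ET-770 or ET-770-DR) or 29 (without RM), the share over 200 kb that rose ran from 0.0787% to 0.709%, that up to 30 kb that fell from 0.822% to 3.91%, and that up to 30 kb that rose from 9.64% to 24.8%. The causes were not tested. With 1 array per arm, counts of single compounds have no replicate check.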
